A study of Mus musculus with 6 samples.

Results

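ENSMUSG00000109486, a gene model without a symbol, and 5430419D17Rik, a protein-coding gene, are 2 of the 48709 mouse genes in the deposited count table of this study. They were picked because their levels, and their differences between the 2 genotypes, looked alike, so the values below that compare the genotypes or the 2 genes describe that choice and carry no test. RNA-seq was carried out on cochleae, the hearing organs of the inner ear, of 3 mice with the genotype Hgf+/+ (wild-type) and 3 with the genotype Hgfdel10Neo/del10Neo (knock-in), littermates in a mouse model of the recessive deafness DFNB39. The knock-in allele carries a deletion of 10 bp in intron 5 of Hgf, which encodes hepatocyte growth factor, and, as its name in the labels shows, Neo, the neomycin resistance cassette. The mice were between 5 and 27 weeks old, and the labels do not give the age of each mouse. The study describes 3 mice of each genotype, so each library is taken as 1 mouse.

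The current RefSeq symbol of 5430419D17Rik is Cdcp3, for CUB domain containing protein 3. CUB domains are extracellular modules found in secreted and membrane proteins, where they bind other proteins or carbohydrates. The gene lies between Dmbt1, which encodes a mucosal defence glycoprotein with scavenger receptor cysteine-rich (SRCR), CUB and zona pellucida domains, and Cuzd1, which encodes a protein with CUB and zona pellucida domains. ENSMUSG00000109486 has no entry in GENCODE M21 or in the symbol tables used here, and no position, length, biotype or strand is given for it in those sources. It is 1 of 360 identifiers of the count table without a match in GENCODE M21, of which 64 had enough counts to be tested.

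5430419D17Rik (ENSMUSG00000006204) spans 132050 bases of chromosome 7 in GRCm38, from 131174402 to 131306451 on the forward strand. GENCODE M21 gives it 3 transcripts. The transcript 5430419D17Rik-201 has 23 exons and 841 codons and ends at 131250945. The transcript 5430419D17Rik-203 has 69 exons and 2486 codons, and 44 of its exons, with 5078 bases in all, lie past the end of the shorter one. The 2 transcripts have 21 exons of identical ends in common. The counts are per gene and do not separate these transcripts. None of the 8568 distinct words of 93 bases, the read length, in the transcripts of 5430419D17Rik occurred in a transcript of any other gene of GENCODE M21. Transcripts of ENSMUSG00000109486 are not in that set, so sharing of reads between the 2 genes was not tested, and because no source used here gives the strand setting of the counting, overlapping genes may not be separable.

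The promoter of 5430419D17Rik is shown because the gene differed in level between the groups, and the stretch before the start of its neighbour Cuzd1, a CUB domain gene with hardly any counts in these cochleae, is shown for comparison. Both are from RefSeq on GRCm38.p6. The first is at chr7:131174152-131174451 on the forward strand, with 250 bases before the annotated start and 50 after it. The second is at chr7:131322293-131322542 on the reverse strand and holds the 250 bases before the start. Capitals mark TATAAA on either strand.
5430419D17Rik: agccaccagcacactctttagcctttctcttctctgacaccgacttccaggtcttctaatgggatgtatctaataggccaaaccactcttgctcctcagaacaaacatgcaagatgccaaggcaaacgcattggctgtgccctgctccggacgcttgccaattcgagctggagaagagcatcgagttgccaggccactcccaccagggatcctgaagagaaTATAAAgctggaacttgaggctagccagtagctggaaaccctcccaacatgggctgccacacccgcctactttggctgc
Cuzd1: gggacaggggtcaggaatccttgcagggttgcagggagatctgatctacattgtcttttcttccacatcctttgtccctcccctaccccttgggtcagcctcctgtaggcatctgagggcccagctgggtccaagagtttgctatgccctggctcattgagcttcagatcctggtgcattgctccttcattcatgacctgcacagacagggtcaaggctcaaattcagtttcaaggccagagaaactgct
The start of 5430419D17Rik has 1 TATAAA match, whose first base is 29 bases before the annotated start, and the start codon follows the annotated start by 19 bases. TATAAA on either strand was found in 13.6% of all 32851 promoters of 300 bases in the table. CCAAT, on either strand, was found 121 and 93 bases before the start of 5430419D17Rik, and at least 1 match was present in 37.4% of promoters. The GC box letters GGGCGG had no match there on either strand and occurred in 35.7% of promoters. The E-box letters CANNTG had none either and occurred in 72.3% of promoters. Its special case CACGTG was likewise not found and occurred in 7.15%. The 300 bases around the start of Cuzd1 held 2 matches of the E-box letters and none of the other motifs.

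The libraries held from 24005234 to 42312291 gene counts. Hgf, the targeted gene, measured 15.4, 16.2 and 15.2 CPM (counts relative to the total gene counts of the library, scaled by TMM) in wild-type replicates 1 to 3. Its knock-in levels were 9.23, 10.4 and 10.5 CPM, with no overlap between the groups. Its log2 fold change was -0.63 (SE 0.11), and it was not called by edgeR's quasi-likelihood test (adjusted p = 0.246). Reads of Neo numbered 5, 8 and 10 in the wild-type and 71, 199 and 5 in the knock-in libraries. The 5 reads in the library labelled knock-in replicate 3 go against its label, which names the cassette. Its Hgf level, 10.5 CPM, was among the knock-in values, and so was its level of Dct, a gene called lower in knock-in. Dct was at 19.3, 24.3 and 23.6 CPM in the libraries labelled knock-in replicate 1, 2 and 3. In wild-type it was at 98.5, 105 and 116 CPM. The genotype of the third knock-in library was not tested. As a check of the tissue, 4 hair cell markers summed to 80.2 to 89.9 CPM in wild-type and 84.6 to 86.3 CPM in knock-in, so the sensory cells of the cochlea were present in all 6 libraries. High Xist counts, from the inactive X chromosome, were found in wild-type replicate 2 (25380) and in the library labelled knock-in replicate 3 (17489), against at most 30 elsewhere.

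Both genes were expressed at a moderate level and were higher in every knock-in library than in any wild-type library. ENSMUSG00000109486 was at 15.7, 14.6 and 16.5 CPM in wild-type replicates 1, 2 and 3. It was at 27.1, 29.6 and 26.8 CPM in the libraries labelled knock-in replicate 1, 2 and 3. The lowest knock-in value was 1.62 times the highest wild-type value. The group means were 15.6 ± 0.970 and 27.8 ± 1.54 CPM (SD, n = 3 per group), a fold of 1.79 and a log2 fold change of 0.84 (SE 0.10) in edgeR. The mean CPM over the 6 libraries exceeded that of 63.9% of the genes tested.

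5430419D17Rik was at 14.9, 16.5 and 16.8 CPM in wild-type replicates 1, 2 and 3. It was at 28.8, 29.2 and 23.9 CPM in the libraries labelled knock-in replicate 1, 2 and 3, with the third the lowest of the knock-in values and 1.43 times the highest wild-type value. The group means were 16.0 ± 1.03 and 27.3 ± 2.93 CPM (SD, n = 3 per group), a fold of 1.70 and a log2 fold change of 0.77 (SE 0.12) in edgeR. Per length, over the 8572 bases of its annotated exons, the level was 1.87 ± 0.120 RPKM in wild-type and 3.19 ± 0.342 RPKM in knock-in (CPM per kilobase of exon; SD, n = 3 per group). In bulk tissue, more cells of a type that expresses a gene and more RNA per cell cannot be told apart.

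**Figure D1:**
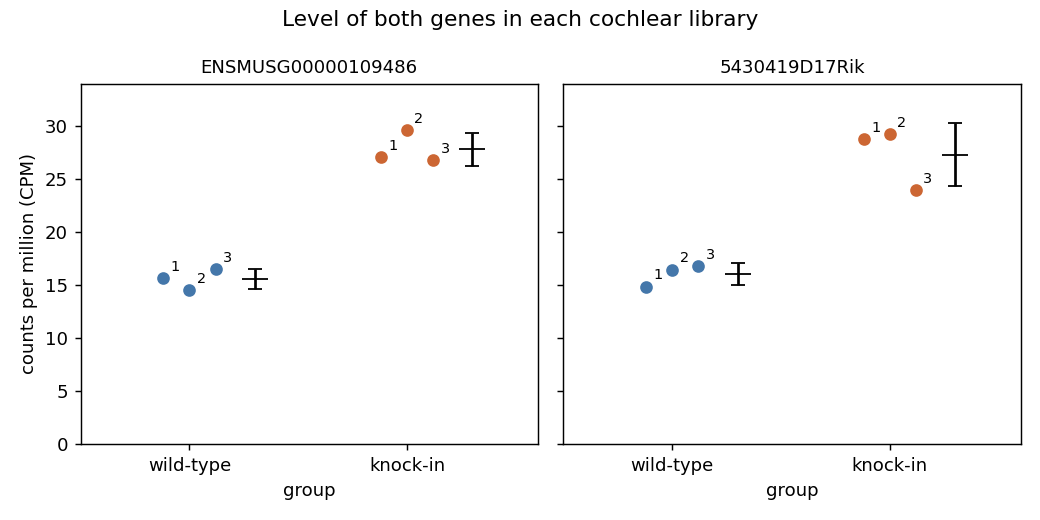
Level of ENSMUSG00000109486 (left) and 5430419D17Rik (right) in each library, in CPM on a linear axis from 0; points are libraries, numbered by replicate, and the bar beside each group is the mean with its SD. In both panels the 3 knock-in points lie above the 3 wild-type points, and knock-in replicate 3 of 5430419D17Rik, at 23.9 CPM, is the lowest of the 6 knock-in points.

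The authors' deposited table gives log2 fold changes close to these, 0.83 (SE 0.14) for ENSMUSG00000109486 and 0.76 (SE 0.14) for 5430419D17Rik, from the same 6 libraries. Their deposited regularized log2 values of ENSMUSG00000109486 were at most 9.26 in wild-type and at least 9.85 in knock-in. Those of 5430419D17Rik were at most 9.28 in wild-type and at least 9.71 in knock-in. On that scale, which shrinks differences, the group means differed by 0.70 and 0.64. The regularized values therefore kept the groups of each gene apart as the CPM did.

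Without the library labelled knock-in replicate 3, the log2 fold changes were 0.86 (SE 0.12) for ENSMUSG00000109486 and 0.85 (SE 0.12) for 5430419D17Rik. Over all 14 other fits, among them those that left out each library in turn, they ran from 0.79 to 0.88 and from 0.72 to 0.85. In the pair of libraries with abundant Xist, 1 of each group, ENSMUSG00000109486 was 1.84 times as high in knock-in and 5430419D17Rik 1.45 times. In the other 2 libraries of each group the folds of the means were 1.76 and 1.83.

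The counts of the 2 genes were close to equal in every library. ENSMUSG00000109486 had 390, 433 and 691 counts in the wild-type libraries, where 5430419D17Rik had 370, 490 and 703. In the knock-in libraries ENSMUSG00000109486 had 899, 868 and 618 counts and 5430419D17Rik had 955, 857 and 553. The totals over the 6 libraries were 3899 and 3928 counts. These are counts per gene, and without a length for ENSMUSG00000109486, equal counts do not mean equal levels per length.

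The ratio of the counts of ENSMUSG00000109486 to those of 5430419D17Rik was 1.05, 0.884 and 0.983 in wild-type replicates 1, 2 and 3. It was 0.941, 1.01 and 1.12 in the libraries labelled knock-in replicate 1, 2 and 3. The lowest ratio, in wild-type replicate 2, had an exact (Clopper-Pearson) 95% interval from 0.775 to 1.01, and the highest, in the library labelled knock-in replicate 3, one from 0.995 to 1.26. The intervals of all 6 libraries held 1, and they cover counting error only. The group means of the ratio were 0.974 ± 0.0856 and 1.02 ± 0.0886 (SD, n = 3 per group). On the log2 scale the knock-in mean was 0.07 above the wild-type mean, with an SD of 0.13 among wild-type and 0.12 among knock-in libraries, a difference smaller than the spread within either group.

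**Figure D2:**
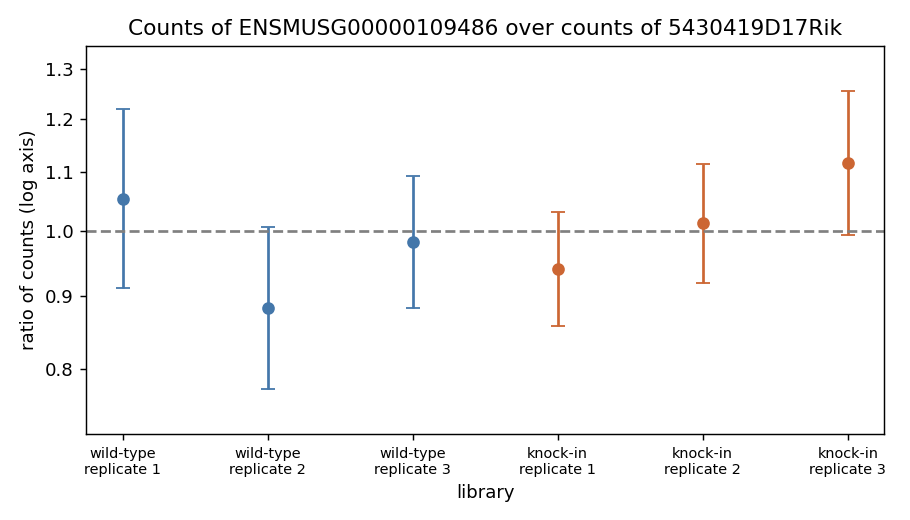
Ratio of the counts of ENSMUSG00000109486 to the counts of 5430419D17Rik in each library, on a log axis; points are the ratios, bars exact 95% intervals of counting error, blue wild-type and orange knock-in, and the dashed line equal counts. The ratios run from 0.884 to 1.12, every interval crosses the dashed line, and the groups overlap.

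Within a group the 2 genes did not deviate in the same direction in every library, but some deviations were small. The log2 deviation of a library from the mean of its group had the same sign for both genes in 3 of 6 libraries and opposite signs in the other 3. ENSMUSG00000109486 deviated by only 0.01 in wild-type replicate 1 and -0.04 in knock-in replicate 1, both libraries with opposite signs. These deviations were not compared with counting error, so no separate variation of the 2 genes is read from the signs. Wild-type replicate 2 was lowest in its group for ENSMUSG00000109486, at -0.10, and above the group mean for 5430419D17Rik, at 0.04. In the library labelled knock-in replicate 3 the deviations were -0.05 for ENSMUSG00000109486 and -0.18 for 5430419D17Rik. The deviations of ENSMUSG00000109486 lay between -0.10 and 0.09, and those of 5430419D17Rik between -0.18 and 0.10.

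Among the 20733 genes tested across the genome, edgeR's quasi-likelihood test, with p adjusted after Benjamini and Hochberg, called 2 higher and 5 lower in knock-in. ENSMUSG00000109486 was among the 2 called higher, 0.00965% of the genes tested, and 5430419D17Rik was not. As the genes were picked on this contrast, nothing is read from that count. Genes called lower made up 0.0241%. ENSMUSG00000109486 was called in 7 of the 14 other fits and 5430419D17Rik in 2 of them, DESeq2, which called 0.0434% of genes higher, and edgeR without a filter, which called 0.135% higher. Neither was called in any of the 6 fits that left out a library. Every knock-in library lay above every wild-type library in 4.71% of the genes tested, both of these genes included, which is likewise a description of the choice. A log2 fold change at least as large as that of 5430419D17Rik was seen in 47 of the 10665 tested genes with a mean of 10 CPM or more, 0.441%, again counting both.

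The other gene called higher was Car6, which encodes a secreted carbonic anhydrase of salivary glands, with 359 counts in all 3 knock-in libraries together and 3 in the wild-type ones. The lowest adjusted p of the genes called lower was that of Dct, which encodes an enzyme of melanin synthesis, at 106 ± 8.85 CPM in wild-type and 22.4 ± 2.74 CPM in knock-in (SD, n = 3 per group; edgeR adjusted p = 0.000179). Car6 had a mean of 2.26 CPM over the 6 libraries. It was highest in the library labelled knock-in replicate 3, at 7.71 CPM, where 5430419D17Rik was at its lowest knock-in level. A relation between Car6 and 5430419D17Rik was not tested. ENSMUSG00000109486 and 5430419D17Rik had a mean of 21.7 CPM each.

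**Figure D3:**
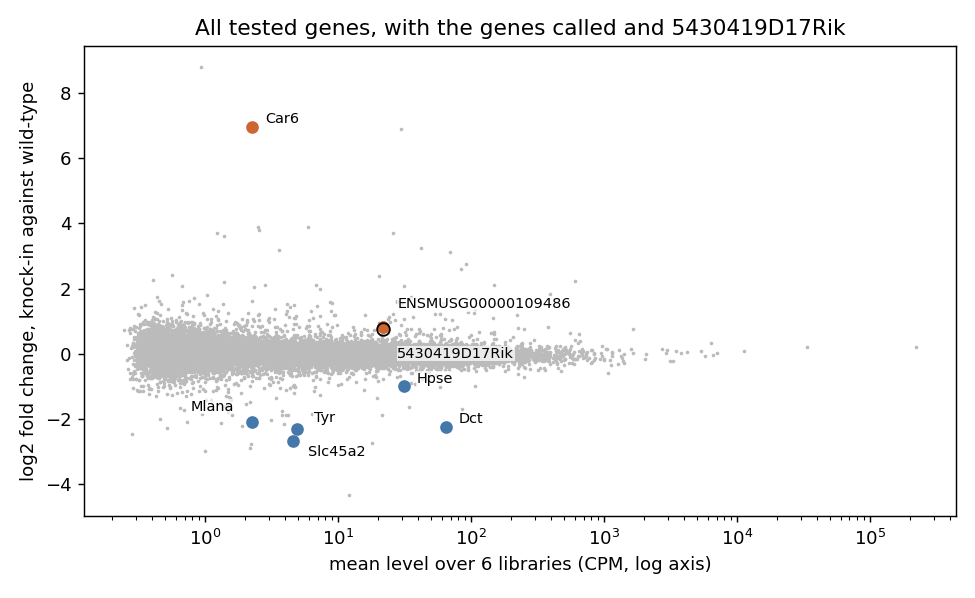
Mean level over the 6 libraries in CPM on a log axis against the edgeR log2 fold change of knock-in against wild-type, for the 20733 genes tested (grey); orange points were called higher, blue points lower, and the open circle is 5430419D17Rik, which was not called. ENSMUSG00000109486 and 5430419D17Rik lie almost on each other, at 21.7 CPM each and log2 fold changes of 0.84 and 0.77.

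The neighbourhood of 5430419D17Rik was examined because the choice of the genes did not use it. No gene that GENCODE M21 places near it was called. ENSMUSG00000109486, which edgeR called higher, has no position in the sources used here. Whether it, or another identifier without a match, lies near 5430419D17Rik was not tested. Within 500 kb of either end, 32 other annotated genes were in the count table and 16 passed the filter on low counts. The edgeR quasi-likelihood test called 0 of these 16, and 1 had an unadjusted p under 0.05 (4.5% of all genes tested did), the intronic transcript Gm44982 at 0.381 ± 0.0668 and 0.746 ± 0.238 CPM (SD, n = 3 per group; named after its values were seen). DESeq2 and limma-voom also called 0. The shares called in either direction over all genes tested were 0.0338% with edgeR, 0.121% with DESeq2 and 0.0386% with limma-voom. With shares this low, 16 genes would hold few or none, so nothing is read from the 0 calls. The median log2 fold change of the 16 was 0.05, against 0.00 over all genes tested. The groups did not overlap for 2 of them, Gm44982 and Gm44624, both higher in knock-in and below 1.3 CPM in every library (both named after their values were seen); over all genes tested 8.72% did not overlap.

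On the side before the start of 5430419D17Rik the nearest tested gene was Dmbt1, at a gap of 52.8 kb. Its levels were 104, 1.18 and 3.03 CPM in wild-type and 0.362, 56.7 and 9.48 CPM in knock-in libraries. They spread widely within both groups, with a log2 fold change of -0.68 (SE 1.5). Further out, Htra1, a secreted serine protease gene, had a log2 fold change of 0.06 (SE 0.20). Plekha1, which encodes an adaptor protein that binds phosphoinositides, had -0.05 (SE 0.11). Tacc2, a gene of a centrosomal coiled-coil protein, had 0.07 (SE 0.16).

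On the other side Cuzd1, which ends 2.1 kb past the end of 5430419D17Rik and is read in the opposite direction, was at 0.139 ± 0.0806 CPM in wild-type and 0.129 ± 0.114 CPM in knock-in (SD, n = 3 per group) and did not pass the filter. The nearest tested genes were 2310057M21Rik, at a log2 fold change of -0.20 (SE 0.14), and Pstk, a kinase gene of selenocysteine synthesis, at -0.04 (SE 0.11). They were followed by the antisense model Gm44623, at 0.11 (SE 0.26), and by Ikzf5, a zinc finger gene of the Ikaros family, at -0.43 (SE 0.28). Fgfr2, a fibroblast growth factor receptor gene on the reverse strand, overlaps 5430419D17Rik in the annotation through 1 of its 27 transcripts, which has no exon there. Fgfr2 was at 145 ± 13.4 CPM in wild-type and 149 ± 19.0 CPM in knock-in (SD, n = 3 per group). Its log2 fold change was 0.04 (SE 0.12). Among Fgfr2 and the 4 nearest tested genes on each side, the highest log2 fold change was 0.11; just past Ikzf5, Gm44624 had 0.57 (SE 0.27) and Gm44625 had 0.18 (SE 0.25; named after its values were seen).

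Per exon length, 5430419D17Rik was at 2.53 RPKM over the 6 libraries. This was above 2310057M21Rik (0.991 RPKM) and Pstk (1.29 RPKM) and below Plekha1 (5.16 RPKM) and Htra1 (18.1 RPKM).

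**Figure D4:**
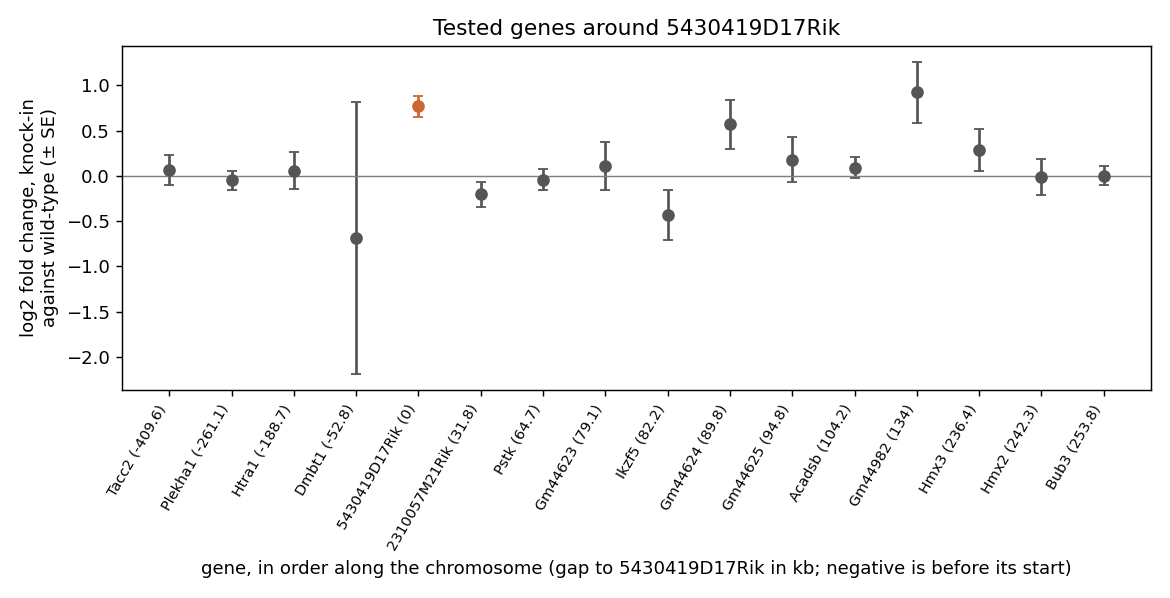
Log2 fold change of knock-in against wild-type with its SE, from edgeR, for 5430419D17Rik (orange) and the tested genes within 500 kb (grey) in order along the chromosome, with the gap to 5430419D17Rik in kb after each name; the overlapping Fgfr2, at 0.04, is not drawn. 5430419D17Rik lies at 0.77, its tested neighbours on either side, Dmbt1 and 2310057M21Rik, lie at -0.68 and -0.20, and Gm44982 lies at 0.92 with an SE of 0.34.

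The next comparison was a list of 24 genes, all with SRCR domains, as in the neighbour Dmbt1, except Cuzd1. Whether 5430419D17Rik itself holds an SRCR domain was not examined. The edgeR quasi-likelihood test called 0 of the 22 that passed the filter, 0 had an unadjusted p under 0.05, and DESeq2 and limma-voom also called 0. Over all genes tested, edgeR called 0.0338%, DESeq2 0.121% and limma-voom 0.0386%, and 4.5% had an unadjusted edgeR p under 0.05. With shares this low, a list of 22 genes would hold few or none, so nothing is read from these counts. The log2 fold change was positive for 11 and negative for 11, and its median was 0.01. The most abundant in CPM were Lgals3bp, a secreted glycoprotein gene, at a log2 fold change of -0.19 (SE 0.18), and Scara5, a ferritin receptor gene, at -0.09 (SE 0.13). Cd163, the haemoglobin scavenger receptor gene of macrophages, was at 0.07 (SE 0.13), and the lysyl oxidase genes Loxl3 and Loxl2 were at -0.01 (SE 0.14) and 0.38 (SE 0.31). Dmbt1 is the other of the 6 most abundant.

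Genes of gland secretion were listed because Car6 is one. The list was put together with earlier results of these data known and is not independent evidence of a direction. It holds 29 genes, of which 20 were tested. The edgeR quasi-likelihood test called 1 (Car6) higher and 0 lower, against 0.00965% and 0.0241% of all genes tested. Its unadjusted p was under 0.05 for 7 of the 20, against 4.5% of all genes tested. The median log2 fold change was 0.19. After Car6 the smallest p were those of Pip, a gene of glandular secretions, with 149 counts in the knock-in libraries together and 0 in the wild-type ones, and of Bpifa2, a salivary protein gene. The wild-type levels of Bpifa2 were 0.562, 0.504 and 0.406 CPM, and its knock-in levels 7.51, 46.2 and 122 CPM. Chia1, an acidic chitinase gene, had a log2 fold change of 3.19 (SE 0.66), Wfdc12 had 1.61 (SE 0.34), and Amy1, an amylase gene, had 1.59 (SE 0.42). The other gene with an unadjusted p under 0.05, the mucin gene Muc5b (named after its values were seen), went the other way, at 5.86, 4.07 and 83.7 CPM in wild-type and 4.61, 5.80 and 3.64 CPM in knock-in libraries. Pip, Bpifa2, Chia1 and Amy1 were each highest in the library labelled knock-in replicate 3, in which ENSMUSG00000109486 and 5430419D17Rik were at the lowest of their knock-in values. For ENSMUSG00000109486 that value, 26.8 CPM, was close to the 27.1 CPM of knock-in replicate 1. A relation of the gland genes to the pair was not tested.

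Markers of cells that a dissected cochlea can hold were summed as CPM beside these values. The 8 pigment cell markers summed to 199.7 to 218.7 CPM in wild-type and 100.6 to 102.5 CPM in knock-in. Of these, 4 were called lower by edgeR, against 0.0241% of all genes tested. Dct, at means of 106 CPM in wild-type and 22.4 CPM in knock-in, was the largest part of the difference. The 4 not called were Tyrp1, Mitf, Pmel and Kit, at log2 fold changes of -1.13, -0.21, -0.09 and -0.04. The 7 adipocyte markers summed to 101 to 196 CPM in wild-type and 175 to 808 CPM in knock-in. The 6 cartilage markers summed to 118 to 210 CPM in wild-type and 186 to 457 CPM in knock-in. All 7 and all 6 had positive log2 fold changes and none was called. The unadjusted edgeR p was under 0.05 for 7 of the 7 and 5 of the 6, against 4.5% of all genes tested. The 9 markers of gland epithelium summed to 103 to 182 CPM and 122 to 250 CPM, with 7 positive log2 fold changes. Car6 was called higher, as were 0.00965% of all genes tested, and 4 of the 9 had an unadjusted p under 0.05. These were Car6, Pip and Bpifa2, higher in knock-in, and Muc5b, lower in knock-in. They are the same genes as in the gland secretion list and add nothing to it. No marker of these 4 lists was at 3 counts or fewer over the 6 libraries. In the libraries labelled knock-in replicate 1, 2 and 3, the adipocyte markers summed to 384, 175 and 808 CPM and the cartilage markers to 186, 457 and 359 CPM. ENSMUSG00000109486 and 5430419D17Rik were highest in replicate 2, where the cartilage sum was highest and the adipocyte sum lowest. The part of these cells in the levels of the 2 genes was not tested.

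Genes like the pair in pattern were sought among tested genes with a mean of at least 1 CPM. Genes without a symbol, or with a gene-model name for one (Gm, AC, BC or Rik), were left out. The rest were ranked by Pearson's r of log2 CPM with the mean of the pair over the 6 libraries. The difference between the groups enters this measure, and all genes share the same 6 libraries, so r is a description. Among the genes of highest r were Trmt44 (r = 0.973), which was at 11.4, 11.97 and 11.95 CPM in wild-type and 13.3, 13.3 and 12.9 CPM in knock-in libraries, Phyhd1 (r = 0.971), Zfp780b (r = 0.971), Tmtc4 (r = 0.965) and Plekhh1 (r = 0.962). Their log2 fold changes ran from 0.14 for Zfp780b to 0.39 for Tmtc4, below those of the pair, and none was called. Tmtc4, a transmembrane protein gene, averaged 30.1 ± 1.44 CPM in wild-type and 39.4 ± 0.378 CPM in knock-in (SD, n = 3 per group).

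With each other ENSMUSG00000109486 and 5430419D17Rik had r = 0.967. By this measure, over all 20732 other genes, 5430419D17Rik was the 11th gene for ENSMUSG00000109486, and ENSMUSG00000109486 was the 13th for 5430419D17Rik, so each had genes with a closer pattern than its partner.

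**Figure D5:**
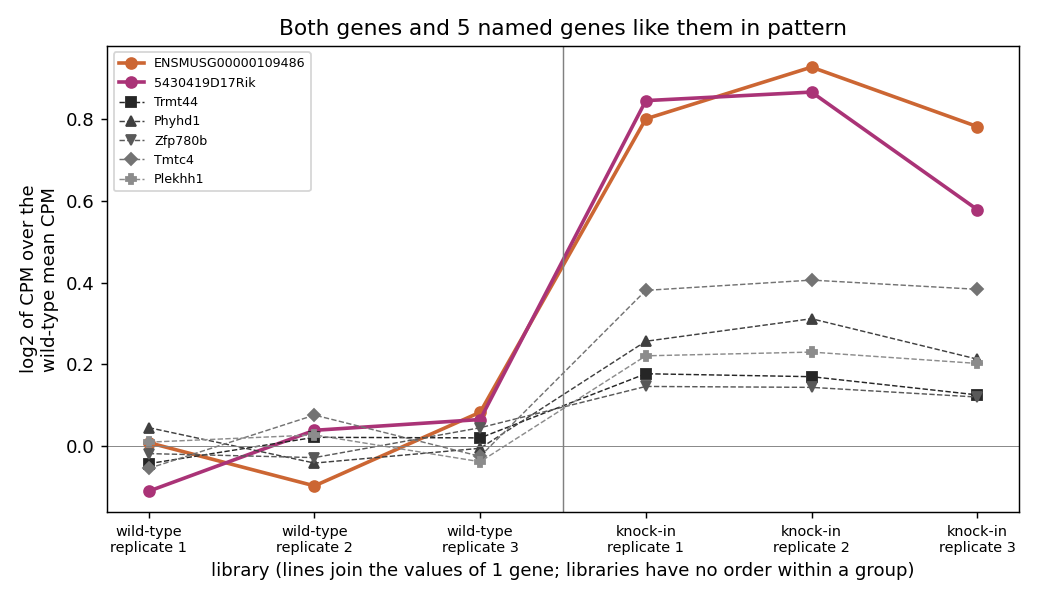
Log2 of CPM over the wild-type mean CPM in each library for ENSMUSG00000109486 and 5430419D17Rik (solid) and 5 of the ranked genes with the highest r to their mean (dashed). All 7 genes are higher in the knock-in libraries than in the wild-type libraries, and the pair lies above the other 5 in each knock-in library.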

How the data were processed

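Total RNA was depleted of ribosomal RNA, reverse transcribed with random primers and sequenced from both ends (93 bases each), per the labels' protocols. Reads were mapped to GRCm38 (GENCODE M11) with STAR 2.5.2 (version per the submitters' processing notes). The authors then ran DESeq2, per the labels. No source used here gives the program that counted reads per gene or its use of strand. The authors deposited raw counts per gene. They also deposited regularized log2 values and a table of their DESeq2 comparison with a mean signal (normalized count), a log2 fold change, its error, a test score and p-values per gene, per the file headers.

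The 24 rows of spike-in and transgene sequences (0.00151% to 0.0045% of counts) stayed out of library sizes and tests. Identifiers were matched to GENCODE M21, on the same build, and 48349 of 48709 matched. Counts were tested with edgeR 4.0.16 (R 4.3.3): filterByExpr by group, TMM, quasi-likelihood F test, two-sided, Benjamini-Hochberg over 20733 genes, threshold 0.05. Standard errors were the log2 fold change over the root of F. The running of the test was checked on simulated counts with known changes, which does not bear on the calls in these data. Pairs of libraries differed beyond counting error (chi-square per degree of freedom 20.95 to 48.97 over 15 pairs), so none was a repeat run of another library. Whether separate libraries came from the same mouse was not tested. Intervals used scipy 1.17.1. The planned ratio per exon length was replaced by a ratio of counts, as only 1 of the 2 genes has an annotated length.

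Named genes were both members of the pair, Hgf, Car6, Dct, genes overlapping 5430419D17Rik, the 4 nearest tested genes on each side, the 6 most like in pattern (1 of them is not reported here), the 6 SRCR domain genes of highest mean CPM and the 6 gland genes of smallest p. The genes, lists and tests were chosen with earlier results of these data known. Alternatives were RLE, upper-quartile and no scaling, no filter and a filter of 1 CPM in 3 libraries, DESeq2 1.42.0, limma-voom (limma 3.58.1), an Xist covariate and leaving out each library. Markers of other cells were summed for the lists fixed for this work; those not described in the text, of airway epithelium, blood and immune cells, bone, muscle, neurons and cochlear cells, had overlapping sums between groups.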

Additional observations from a re-analysis of the deposited data

Results flagged for a closer look

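Counts of the Neo cassette, a row outside the gene comparison, exceeded the counting intervals of all 3 wild-type libraries in knock-in replicate 1, at 2.06 CPM, and in knock-in replicate 2, at 6.99 CPM (unscaled library totals). The wild-type libraries held 0.207, 0.275 and 0.236 CPM and the library labelled knock-in replicate 3 held 0.208 CPM. ENSMUSG00000109486 was at 26.8 CPM and 5430419D17Rik at 23.9 CPM in that library, both above every wild-type library.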

How the results depend on the processing

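Both genes kept a positive log2 fold change that moved by less than the spread between replicates in all 14 other fits. As they were picked for their rise in these same libraries, its sign in these fits is no test of it. Neither gene was called when a library was left out. The difference of their log2 ratio was 0.07 without a pseudocount and 0.00 to 0.13 when a library was left out. The number of genes called, 7, was 76 without a filter on low counts, 25 with DESeq2 and 11 with the Xist covariate. It was 3 to 21 when a library was left out: 21 when knock-in replicate 1 was dropped, 4 when wild-type replicate 1 was, and 3 when wild-type replicate 2 or the library labelled knock-in replicate 3 was. Of the gland secretion list, 1 gene was called, against 7 without a filter, 3 with unscaled library totals, DESeq2 or the Xist covariate, 2 with limma-voom, and 0 to 5 when a library was left out (0 without any 1 wild-type library, 5 without knock-in replicate 1). The cause was not tested. None of the genes that GENCODE M21 places near 5430419D17Rik and none of the SRCR domain list was called in any fit. Few genes were called over all genes tested, so nothing is read from these counts. A version of the ratio per length could not be run. No paired analysis was possible because the sample names do not match a wild-type library to a knock-in one, and the replicate numbers used here only name the samples. As the age of each mouse is not given, a difference in age between the groups could not be examined. With 370 to 955 counts per library, depth limits the ratio of the 2 genes in each library to its counting interval, 0.858 to 1.03 at the most counts.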

Other observations

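Dmbt1, the tested gene nearest to 5430419D17Rik on the side before its start, and Bpifb1, a gene of airway and gland secretions elsewhere in the genome, were high in the same libraries and did not follow the groups. Bpifb1 was at 156, 2.76 and 4.25 CPM in wild-type replicates 1, 2 and 3 and at 0.513, 93.6 and 13.7 CPM in the libraries labelled knock-in replicate 1, 2 and 3. Dmbt1 was highest in wild-type replicate 1 (104 CPM) and knock-in replicate 2 (56.7 CPM) and lowest in knock-in replicate 1 (0.362 CPM). ENSMUSG00000109486 and 5430419D17Rik were at 27.1 and 28.8 CPM in knock-in replicate 1 and at 29.6 and 29.2 CPM in knock-in replicate 2, a spread far smaller than that of Dmbt1. Both genes were singled out after their values were seen, and no test was made.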
